A study of Mus musculus with 4 samples.

Results

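The genes that encode the proteasome were followed in single thymocytes of FVB/N mice, from a WT thymus, a preleukemic Tal1/Lmo2 thymus and 2 leukemic Tal1/Lmo2 thymi. Members were chosen by symbol alone, as every gene whose name is Psma, Psmb, Psmc or Psmd followed by a digit, without Psmb8 and Psmb9. This gave 38 of the 31053 genes counted, namely 8 Psma, 9 Psmb, 7 Psmc and 14 Psmd genes. The rule itself uses no measured value, although it was set with earlier results of these data known.

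The WT library was made from a mouse of 6 weeks without transgenes, and the preleukemic library from a Tal1/Lmo2 mouse of the same age. The leukemic group, T-ALL#1 and T-ALL#2, came from Tal1/Lmo2 mice of 3 months that had developed acute leukemia of T cells (T-ALL). In this line, by its labelled genotype, the proximal Lck promoter drives the oncogenes Tal1 and Lmo2 in thymocytes. Every mouse was FVB/N, and each library held viable sorted thymus cells of 1 animal after lysis of red cells. Age cannot be told apart from leukemia, and WT and preleukemic thymus each rest on 1 animal.

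Transcripts were counted as unique molecular identifiers (UMIs) on the 10x Genomics 3′ platform. Cells were kept with more than 500 genes and under 10% of UMIs from mitochondrial genes, which left 4220 WT, 5576 preleukemic, 5773 T-ALL#1 and 1975 T-ALL#2 cells. The T-ALL#2 matrix held every barcode, and its cells had at least 3416 UMIs. Kept cells of a library summed to between 24042062 and 70745712 UMIs, and the median depth per cell was 3800.5 UMIs in WT, 4888 in preleukemic cells and, in leukemias T-ALL#1 and T-ALL#2, 8742 and 17581. Tal1 was at 0 UMIs in WT and at 4830 to 16732 in the transgenic libraries, whereas Lmo2 was at 22 UMIs in WT, 183 in preleukemic cells and 26 and 10 in the leukemias, so that the leukemic libraries do not show the Lmo2 transgene. The WT and preleukemic mice are labelled male, but their libraries held 33183 and 76338 UMIs of Xist, the RNA of the inactive X chromosome, and at most 5 UMIs of 4 Y-linked genes. T-ALL#1, labelled female, held 136706 UMIs of Xist and 1 of the Y-linked genes, and T-ALL#2, labelled male, 3 and 4413. The leukemias thus differ in sex, T-ALL#2 differs in sex from the other libraries, and whether labels or libraries were exchanged was not tested. Results of tests are therefore also given without each of these libraries. Pairs of libraries shared 0 to 9 cell barcodes. All 6 markers of the T lineage were detected in each library at a summed 2758 to 4630 counts per 1000000 UMIs (CPM), beside 11.4 CPM or less for 5 B cell markers outside the preleukemic library (18.7 CPM) and 7.56 CPM or less for 7 myeloid markers outside WT (58.5 CPM).

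The proteasome is the protease that breaks down most short-lived and damaged proteins of a cell, after they have been tagged with ubiquitin. Its barrel-shaped core particle is built of alpha rings (the Psma genes), which gate the entrance, and beta rings (the Psmb genes), of which Psmb5, Psmb6 and Psmb7 carry the cutting sites. A regulatory particle caps the core: its Psmc genes encode the ATPases that unfold a substrate and its Psmd genes the subunits that bind ubiquitin, hold the particle together or cut ubiquitin off. Cells of the immune system swap the cutting subunits for immunoproteasome forms, and Psmb10 is the form that takes the place of Psmb7. Psmb11 belongs to the thymoproteasome of cortical thymic epithelium, and Psma8 is the form of an alpha subunit used in testis. Psmd5, Psmd9 and Psmd10 encode assembly chaperones of the regulatory particle. Psmc3ip fits the naming pattern only, since its product acts in meiotic recombination.

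Of the 38 members, 36 were at 10 CPM or more in each of the 4 libraries. The other two were the forms of other cell types. Psmb11 was at 0 UMIs in WT, which with its exact Poisson 95% interval allows up to 0.153 CPM, and at 4, 1 and 5 UMIs in the preleukemic library, T-ALL#1 and T-ALL#2. Psma8 was at 2 UMIs in WT, 19 in preleukemic cells, 135 in T-ALL#1 (1.91 CPM) and 0 in T-ALL#2 (up to 0.102 CPM). Both were thus near 0 in every library. Psmc3ip was low but measurable, at 24.3 CPM in WT, the lowest library, to 33.1 CPM in T-ALL#1, the highest. Of the 6 markers of thymic epithelium, Foxn1 and Krt5 were at 0 in WT and in the preleukemic library, Foxn1, Prss16, Krt5 and Krt8 in T-ALL#1, and Krt5 and Krt8 in T-ALL#2. The other markers of this list were detected. The list summed to 31.2 CPM in WT, 29.5 in preleukemic cells and, in leukemias T-ALL#1 and T-ALL#2, 22.0 and 16.6. Intervals here and below cover counting error only, not the spread between animals.

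Summed over all members, the level was 5790 CPM in WT, 5929 in preleukemic cells and, in leukemias T-ALL#1 and T-ALL#2, 7447 and 7441. The leukemias lay close to each other and above both other libraries, although in such sums fewer cells of a type and less RNA per cell cannot be told apart. Psmb5, the beta subunit with chymotrypsin-like activity, was at 213, 240, 305 and 417 CPM in the same order. Psmb6, with caspase-like activity, was at 225, 236, 313 and 297 CPM. Psmb7, with trypsin-like activity, was at 141, 142, 185 and 168 CPM. In the GENCODE M21 annotation of GRCm38, Psmb5 lies at chr14:54614119-54618022 (minus strand), Psmb6 at chr11:70525367-70527858 (plus strand) and Psmb7 at chr2:38588036-38644087 (minus strand), as protein-coding genes. The preleukemic level of each catalytic subunit lay below that of either leukemia. WT lay below the preleukemic library for Psmb5 and Psmb6, whereas Psmb7 did not differ between them beyond counting error (ratio 1.00, 95% interval 0.961 to 1.05).

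**Figure D1:**
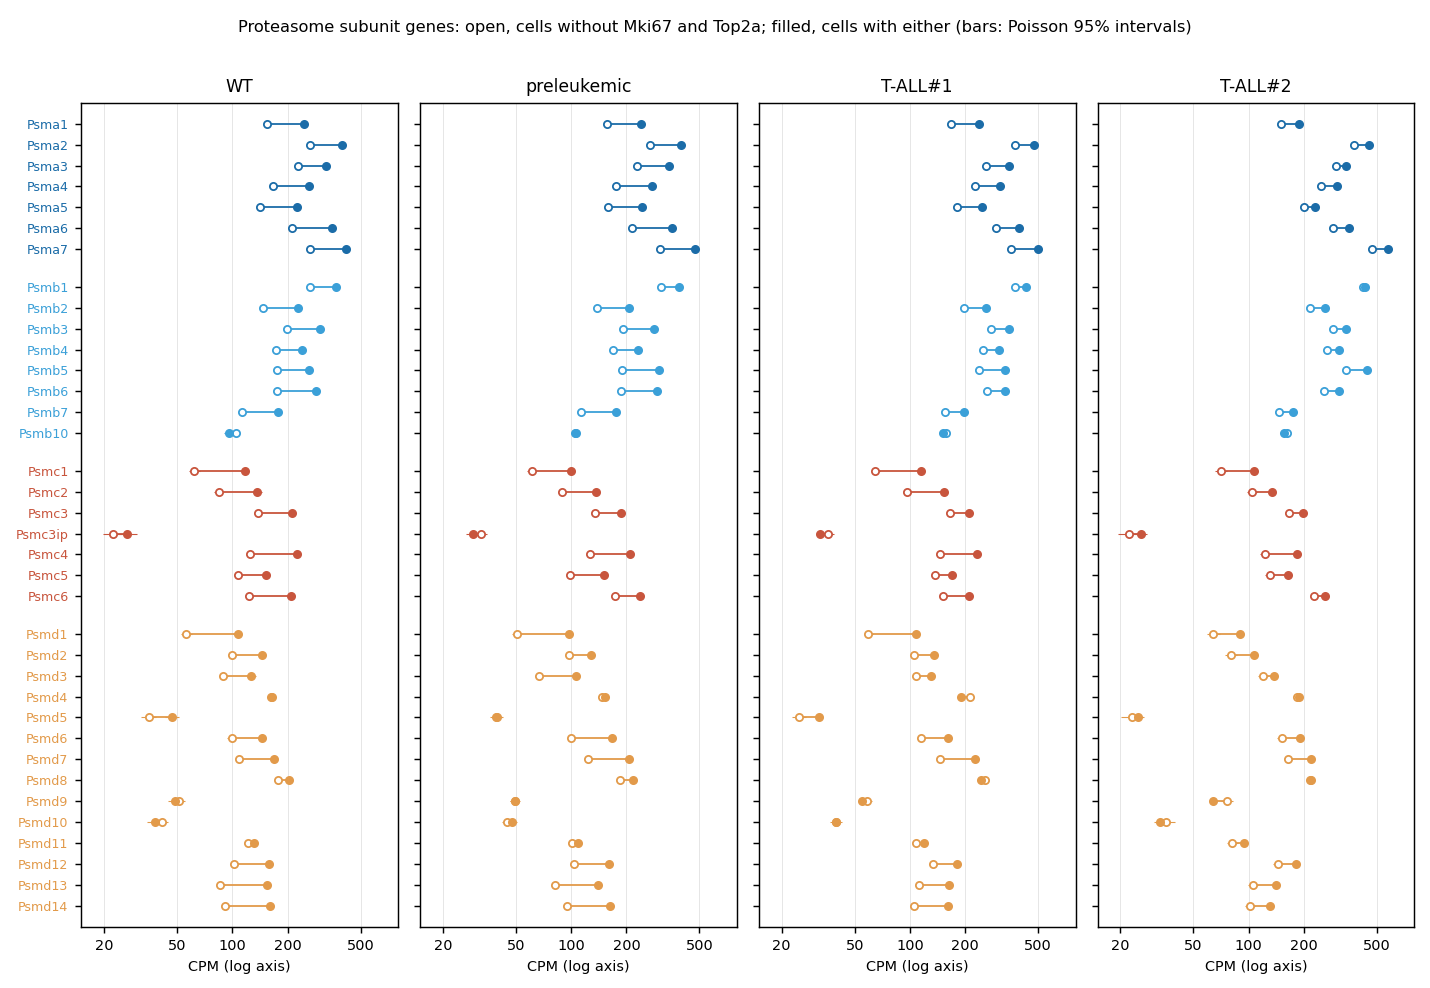
Level of the 36 members that reached 10 CPM, in CPM on a log axis, in 1 panel per library. Open points are cells without a UMI of Mki67 and Top2a, filled points are cells with one, bars are Poisson 95% intervals and colors mark the Psma, Psmb, Psmc and Psmd genes. Filled points lie to the right of open ones for nearly all members, whereas those of Psmb10, Psmc3ip, Psmd4, Psmd8, Psmd9 and Psmd10 lie close together or, in some libraries, in the other order.

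To ask whether proteasome transcripts differ with proliferation, cells with at least 1 UMI of Mki67 or Top2a, genes of dividing cells, were called cycling and the rest non-cycling. Most proteasome subunit genes were higher in cycling cells. Of the 38 members, 30 were higher and 0 lower in cycling cells with the quasi-likelihood test of edgeR over the 4 libraries, at a Benjamini-Hochberg adjusted p under 0.05. Among all 19421 genes tested, 15.2% were higher and 15.9% lower. Among the genes at an average of 10 CPM or more, 31.2% were higher, against 30 of 36 members. The median log2 difference of the members was 0.62, that of all genes was -0.11 and that of genes at 10 CPM or more was 0.04. All 30 called members except Psmd5 had a higher CPM in cycling than in non-cycling cells of each of the 4 libraries.

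The difference ran through every family, with 7 of 8 Psma, 7 of 9 Psmb, 6 of 7 Psmc and 10 of 14 Psmd genes higher. Psmc1, an ATPase of the base, rose from 62.0 to 117 CPM in WT, from 60.9 to 99.997 in preleukemic cells, from 64.7 to 115 in T-ALL#1 and from 70.5 to 107 in T-ALL#2. Cycling and non-cycling sums of Psmc1 did not overlap, and its log2 difference was 0.93 (SE 0.10, edgeR adjusted p = 7.17e-07). Psmd1, the large scaffold of the base, rose from 56.2 to 107 CPM in WT, from 50.4 to 96.8 in preleukemic cells, from 59.4 to 107 in T-ALL#1 and from 64.2 to 90.1 in T-ALL#2. Its log2 difference was 0.97 (SE 0.11, edgeR adjusted p = 1.04e-06), the largest of all members at 10 CPM or more. Both fitted values include TMM factors and lay above the log2 CPM ratio of every library. Those ratios ran from 0.604 (T-ALL#2) to 0.914 (WT) for Psmc1 and from 0.487 (T-ALL#2) to 0.941 (preleukemic) for Psmd1.

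Among the other genes of the regulatory particle, the ATPase gene Psmc4 had a log2 difference of 0.88 and Psmd14, which encodes the enzyme that cuts ubiquitin chains off the substrate, one of 0.81. Psmc3, the smallest change among the ATPases, was still at 0.59. In the core particle the changes were more alike. The alpha subunit genes lay between 0.58 (Psma3) and 0.71 (Psma6), with Psma2 at 0.59 and Psma1 at 0.69. The catalytic genes Psmb5, Psmb6 and Psmb7 were at 0.69, 0.66 and 0.63, and Psmb1, the smallest called beta gene, at 0.42.

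The members that did not pass were mostly those outside the standard particle. Psmb10 was at 104 CPM in non-cycling and 95.9 in cycling WT cells, 105 and 106 in the preleukemic library, 158 and 152 in T-ALL#1, and 162 and 155 in T-ALL#2. Its fitted log2 difference of 0.11 (edgeR adjusted p = 0.484) turned to -0.06 when sums were scaled to total UMIs. The chaperone genes Psmd9 (0.06) and Psmd10 (0.13) turned as well on that scale, to -0.10 and -0.04, and Psmc3ip was at 0.20 (edgeR adjusted p = 0.198). Psmd4, the ubiquitin receptor of the particle, was at 0.14 (edgeR adjusted p = 0.345) and Psmd8, a lid subunit, at 0.25 (edgeR adjusted p = 0.0732). Psma8 and Psmb11 had too few UMIs for a reading.

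Cycling cells were also deeper, with medians of 9866.5 against 3280 UMIs in WT, 12890 against 4316 in the preleukemic library, 18481 against 4788 in T-ALL#1 and 22654 against 11194 in T-ALL#2. With each cell thinned to 2000 UMIs and its state read at full depth, 29 members were higher, 28 of them among the 30, at a median of 0.49. With the state read after thinning, 27 were higher, all among the 30, at a median of 0.37 against -0.21 over all genes. Thinning left out 991 WT, 350 preleukemic, 94 T-ALL#1 and 0 T-ALL#2 cells with fewer UMIs. Scaled to total UMIs in place of TMM factors, 27 of the 30 were higher, at a median of 0.45 against -0.28 over all genes, where 2207 genes were higher and 4384 lower, against 2953 and 3096 with TMM. Without the WT library 29 members were higher, and likewise 29 without the preleukemic library. Without the animal as a block the count was 3, with 37 of 38 estimates still above 0.

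**Figure D2:**
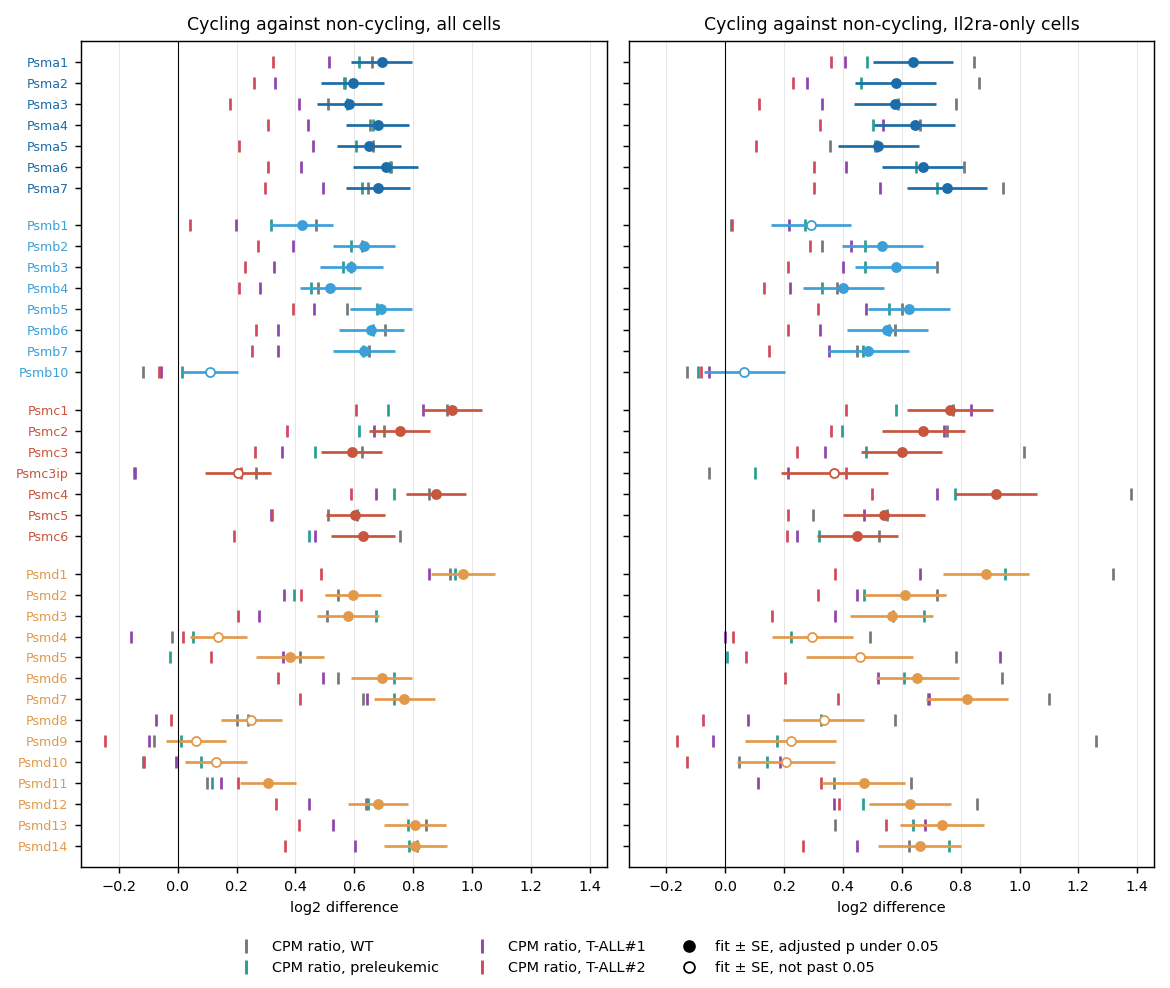
Log2 difference of cycling against non-cycling cells, in all cells (left) and in Il2ra-only cells (right). Points with bars are the edgeR estimate and its SE, filled where the adjusted p was under 0.05, and ticks are the CPM ratios of the single libraries, which carry no TMM factor. Psmd1, Psmc1 and Psmc4 lie farthest right in all cells, Psmb10 and Psmd9 lie near 0, and the ticks of T-ALL#2 are mostly the leftmost.

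Genes that work with the proteasome moved in part with the subunits. Of 27 such genes outside the members, 13 were higher in cycling cells and 1 lower, beside the 31.2% of genes higher at 10 CPM or more, a level that all 27 reached. All 4 partners of the regulatory particle were higher, led by Uchl5, a deubiquitinase, at a log2 difference of 1.39 (edgeR adjusted p = 6.15e-09). All 5 genes for assembly of the core particle were higher as well, with Psmg2 at 0.87 and Psmg1 at 0.84. Of the 5 activator and inhibitor genes 2 were higher, Psme3 at 0.77 and Psme2 at 0.31. Of 9 genes for ubiquitin and delivery to the proteasome 2 were higher. Nfe2l1, the transcription factor that drives proteasome genes when the proteasome fails, was lower at -0.62 (edgeR adjusted p = 0.00359), and Nfe2l2, Ddi2 and Ngly1, of the same group, did not pass.

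The promoters of the members were read for 4 motifs, because the members moved together with cycling. RefSeq promoters of build GRCm38.p6, from 250 bases before to 50 bases after a start site, were found for 31 of the 38 members (33 promoters), among 27025 genes. None was found for Psma8, Psmb1, Psmb2, Psmb7, Psmc3, Psmd3 and Psmd7, so the catalytic gene Psmb7 was not read. The Ets motif CCGGAAG, on either strand, was in the promoters of 11 of these 31 members (35.5%) and of 9.93% of all genes. Its holders were 4 of 6 Psmc, 6 of 12 Psmd, 1 of 7 Psma and 0 of 6 Psmb genes. The core of the antioxidant response element that Nfe2l1 and Nfe2l2 bind, TGACNNNGC, was in those of 5 members (16.1%) and of 14.0% of all genes. CCAAT, bound by NF-Y, was in those of 13 members (41.9%, against 41.1% of all genes), and the E-box CACGTG in those of 3, Psma4, Psmb10 and Psmd9 (9.68%, against 8.09%). These shares of all genes include genes not expressed here, and the shares among genes at 10 CPM or more were not computed. No motif of the 4 contains another, and a match describes the letters of the window and nothing more.

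Windows of 120 bases just before the RefSeq start site are shown for 6 members, on the strand of the gene, with a motif match in capitals. They were picked after the values were seen, as promoters of both catalytic genes that hold TGACNNNGC (Psmb5 and Psmb6), of 3 regulatory particle genes that rose with cycling and hold CCGGAAG or its reverse complement (Psmc1, Psmd2 and Psmd6), and of Psmb10, which did not pass and holds CACGTG. The windows are those of Psmb5 at chr14:54617996-54618115 (minus strand), Psmb6 at chr11:70525237-70525356 (plus strand), Psmc1 at chr12:100110082-100110201 (plus strand), Psmd2 at chr16:20651532-20651651 (plus strand), Psmd6 at chr14:14120946-14121065 (minus strand) and Psmb10 at chr8:105938393-105938512 (minus strand).
Psmb5: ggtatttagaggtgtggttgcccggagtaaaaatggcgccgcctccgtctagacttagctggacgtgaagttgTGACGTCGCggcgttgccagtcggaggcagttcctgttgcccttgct
Psmb6: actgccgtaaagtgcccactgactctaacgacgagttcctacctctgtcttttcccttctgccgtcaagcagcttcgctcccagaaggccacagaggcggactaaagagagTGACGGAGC
Psmc1: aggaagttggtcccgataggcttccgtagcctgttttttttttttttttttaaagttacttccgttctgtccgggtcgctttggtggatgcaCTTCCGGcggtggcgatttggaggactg
Psmd2: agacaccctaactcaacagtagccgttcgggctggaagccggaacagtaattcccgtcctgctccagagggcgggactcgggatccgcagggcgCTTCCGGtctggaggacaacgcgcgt
Psmd6: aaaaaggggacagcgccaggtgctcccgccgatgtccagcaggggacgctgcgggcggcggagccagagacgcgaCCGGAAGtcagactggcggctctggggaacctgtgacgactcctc
Psmb10: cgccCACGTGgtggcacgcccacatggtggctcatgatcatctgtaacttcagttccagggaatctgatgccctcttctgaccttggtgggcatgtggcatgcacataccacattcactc

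Il2ra-only cells, with a UMI of Il2ra and none of Cd4 and Cd8a, hold the early thymocytes that bear the interleukin 2 receptor alpha chain. There were 54 such cells in WT, 465 in the preleukemic thymus and, in leukemias T-ALL#1 and T-ALL#2, 388 and 498. Within them, 28 of the 38 members were higher in cycling cells and 0 lower (edgeR, adjusted p under 0.05), beside 12.6% of all genes higher and 8.5% lower. Among genes at 10 CPM or more, 24.5% were higher, against 28 of 36 members. The median log2 difference was 0.58 over the members, -0.01 over all genes and 0.07 over genes at 10 CPM or more. All 28 were among the 30 of the comparison over all cells, which shares these cells. The others of the 30 were Psmb1 (0.29, edgeR adjusted p = 0.124) and Psmd5 (0.46, edgeR adjusted p = 0.0542).

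The regulatory particle again held the largest changes, with Psmc4 at 0.92 (SE 0.14, edgeR adjusted p = 1.10e-09), Psmd1 at 0.89, Psmd7, a lid subunit, at 0.82 and Psmc1 at 0.76. In the core particle Psma7 was at 0.75, Psma6 at 0.67, Psmb5 at 0.63 and Psmb3 at 0.58. The smallest called changes among alpha, ATPase and beta genes were those of Psma5 (0.52), Psma3 (0.58), Psmc6 (0.45) and Psmb4 (0.40). Psmb10 was at 0.06 (edgeR adjusted p = 0.840) and turned below 0 with other scalings, at -0.08 for total UMIs and -0.02 for DESeq2 size factors. Psmc3ip (0.37, edgeR adjusted p = 0.154), Psmd10 (0.21) and Psmd9 (0.22) did not pass either, and all 3 turned below 0 in thinned cells with the state read at full depth, at -0.13, -0.07 and -0.57. Of the 27 pathway genes, 12 were higher, beside the 24.5% of genes at 10 CPM or more, with Uchl5 at 1.28, Psmg2 at 0.90 and Psme3 at 0.75, and Nfe2l1 was lower at -0.71 (edgeR adjusted p = 0.00461).

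This comparison was less stable than that over all cells. With cells thinned to 2000 UMIs, 0 members were higher with the state read after thinning and 13 with the state read at full depth. In the former the median over members was 0.05 against -0.33 over all genes, and Psmd7 turned to -0.19. The count was 15 without T-ALL#1, 19 without the preleukemic library, 27 without WT and 29 without T-ALL#2. The WT sums rest on 20 cycling and 34 non-cycling cells. In both leukemias alone, 6 members were higher with the animal as a block and 0 without it. Genes over the whole table divided into 2013 higher and 1361 lower with TMM factors, 1703 and 1671 with DESeq2 size factors, and 1494 and 1941 with total UMIs.

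Family sums differed in the same direction in every stage. Cells were divided into 5 stages by detection of Cd4, Cd8a and Il2ra. In all 80 combinations of family, stage and library the cycling sum lay above the non-cycling sum, with an interval of the ratio above 1. These intervals cover counting error only, and sums of other gene families were not read beside them. Cycling cells also had the higher median depth in every stage of every library. The ratio ran from 1.16 to 1.71 for Psma, from 1.11 to 1.62 for Psmb, from 1.20 to 1.72 for Psmc and from 1.13 to 1.69 for Psmd. Over all stages, the Psmc ratio was 1.63 in WT, 1.47 in preleukemic cells and, in leukemias T-ALL#1 and T-ALL#2, 1.41 and 1.27. The Psmb ratio was 1.45, 1.42, 1.23 and 1.16 in the same order.

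**Figure D3:**
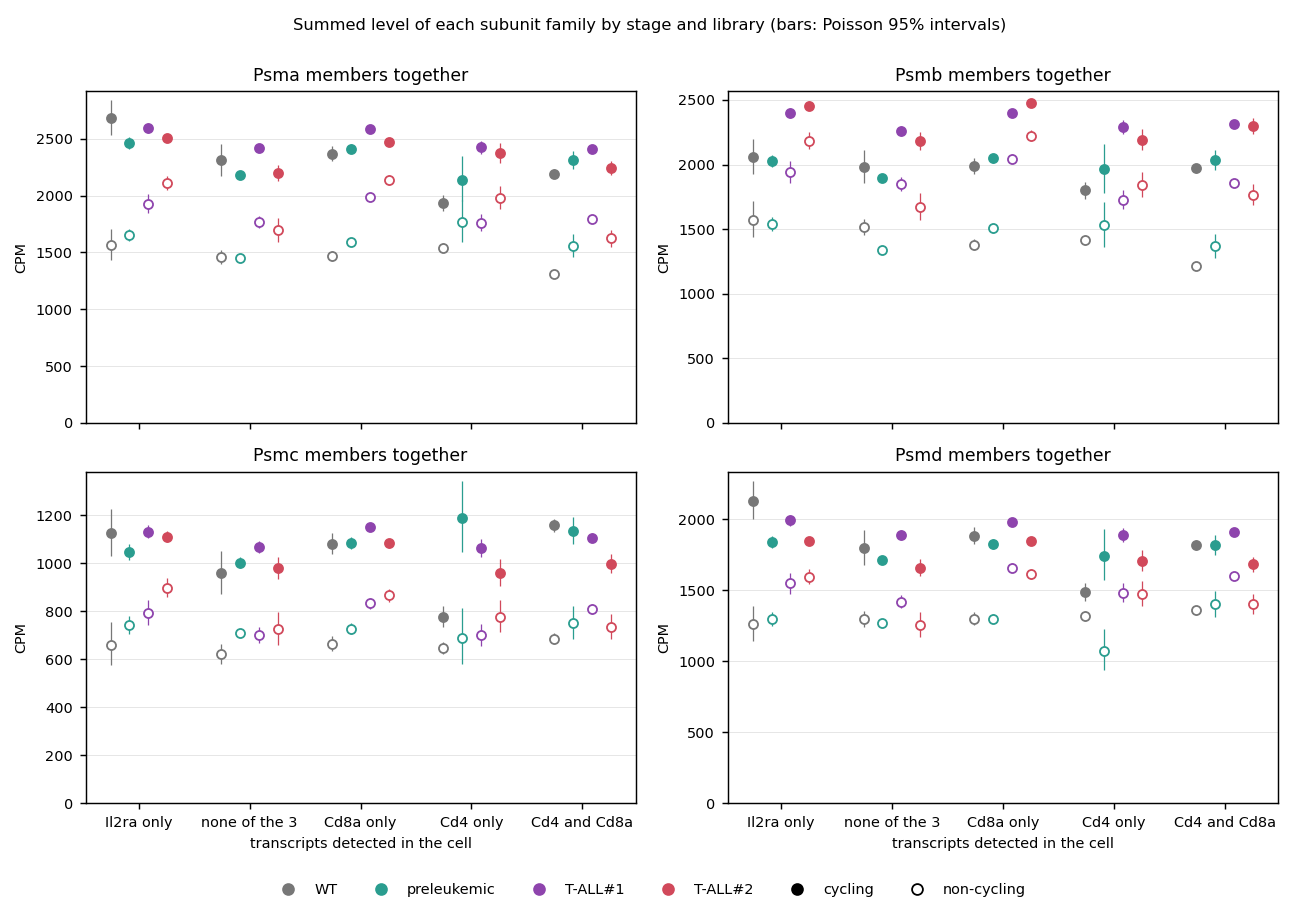
Summed level of each gene family in CPM, with Poisson 95% intervals, by the transcripts detected in the cell (Il2ra only, none of the 3, Cd8a only, Cd4 only, Cd4 and Cd8a), for the 4 libraries in colors. Filled points are cycling and open points non-cycling cells, and every filled point lies above the open point of its library. Open points of both leukemias lie above those of WT and the preleukemic library for Psmb in each stage and for Psma in each stage but Cd4 only.

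Summed over all members, cycling cells were at 7046 CPM in WT, 7145 in preleukemic cells and, in leukemias T-ALL#1 and T-ALL#2, 7927 and 7752. Non-cycling cells were at 4772, 4911, 6154 and 6513 CPM. The ratio between them was 1.48 in WT and 1.45 in the preleukemic library, above 1.29 in T-ALL#1 and 1.19 in T-ALL#2. Whether the cycling difference itself differed between leukemic (n = 2) and not leukemic (n = 2, WT and preleukemic) libraries was tested per gene with an interaction term in edgeR. At an adjusted p under 0.05, 0 of 38 members were called in either direction, beside 0.18% of all genes higher and 0.273% lower, and 0 members had an unadjusted p under 0.05. DESeq2 likewise called 0, with 8 at an unadjusted p under 0.05. Estimates were below 0 for 34 members, with a median of -0.23 against 0.13 over all genes and 0.07 over genes at 10 CPM or more, and among members at 10 CPM or more they ran from -0.37 (Psmb6) to 0.08 (Psmd11). No member was called under any alternative that kept every library. When cycling cells needed 2 or more UMIs, 24 members had an unadjusted edgeR p under 0.05. The median over members was -0.45 there and -0.49 without T-ALL#1. It was -0.13 with the upper limit on genes per cell and -0.17 in thinned cells. With thinning and the state read at full depth it was -0.06, against 0.05 over all genes, and 13 of 38 estimates were above 0. The part of depth in this shift was not tested. Of the pathway genes 0 were called, and Nfe2l1 had the largest estimate at 0.63 (edgeR adjusted p = 0.266).

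Il2ra-only cells were then compared with cells with both Cd4 and Cd8a, within non-cycling cells. These groups rest on transcript detection alone, in leukemic as in WT thymus, and need not match stages of normal development. Few members differed. Of 37 members tested, 3 were higher in Il2ra-only cells and 0 lower (edgeR, adjusted p under 0.05), beside 4.4% of all genes higher and 3.38% lower, and 6.92% higher among genes at 10 CPM or more. At an unadjusted p under 0.05 there were 11 members. The median log2 difference was 0.22 over the members, -0.02 over all genes and -0.04 over genes at 10 CPM or more, and members at 10 CPM or more ran from -0.44 (Psmd9) to 0.55 (Psmb10).

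Psmb10 in Il2ra-only cells was at 142 CPM in WT, 122 in preleukemic cells and, in leukemias T-ALL#1 and T-ALL#2, 170 and 160. In cells with Cd4 and Cd8a it was at 65.8, 94.4, 145 and 132 CPM in that order. Each library was higher in Il2ra-only cells, WT by the most, and the log2 difference was 0.55 (SE 0.17, edgeR adjusted p = 0.0169). The WT value in Il2ra-only cells rests on 46 UMIs in 34 cells. Il2ra-only cells were also deeper, with medians of 8581 against 2554 UMIs in WT and 6528 against 4545 in preleukemic cells. In T-ALL#1 the medians were 4773 against 4533 UMIs, and in T-ALL#2 14110 against 7704. Psmb2, a beta subunit without a cutting site, was at 0.48 (edgeR adjusted p = 0.0397) and the alpha subunit gene Psma4 at 0.47 (edgeR adjusted p = 0.0416). Of the pathway genes 4 were higher, the activator genes Psme1 (0.47) and Psme2 (0.68, edgeR adjusted p = 0.00103), which like Psmb10 respond to interferon, and the assembly genes Psmg1 (0.72) and Psmg4 (0.65). The 3 calls of members were not stable: Psmb10 was at 0.39 (edgeR adjusted p = 0.125) without WT and at 0.58 (adjusted p = 0.0942) without the preleukemic library, and 0 members were called with total UMIs, with thinned cells or with the filter of filterByExpr, 5 with DESeq2 size factors or with all cells of both stages, and 0 to 1 with any 1 library left out. Over all genes, 711 were higher and 546 lower with TMM factors, and 579 and 810 with total UMIs.

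Levels were compared between libraries as CPM ratios with 1.5-fold as the limit, since WT and preleukemic thymus have 1 library each, and no test of these levels was run. Preleukemic and WT levels were close. Of the 36 members at 10 CPM or more, 0 were 1.5-fold higher or lower in the preleukemic library, beside 8.4% of 8417 genes higher and 10.1% lower. The median ratio was 1.01 (0.982 over all genes). Psmc3ip (1.27), Psmc6 (1.25) and Psmd7 (1.19) had the highest ratios. Psmd3 (0.798), Psmd11 (0.831) and Psmd1 (0.909), all genes of non-ATPase subunits, had the lowest. In non-cycling cells, 0 of 36 passed the limit in either direction, beside 11.6% of genes higher and 10.8% lower.

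Leukemic levels lay moderately above preleukemic ones for most members. The ratio was above 1 for 33 of 36 members in T-ALL#1 and for 29 in T-ALL#2, and the median was 1.27 and 1.24, beside 0.903 and 0.724 over all genes. None of the 36 was 1.5-fold higher in both leukemias, beside 6.45% of 8438 genes, and none was 1.5-fold lower in both, beside 22.6%. By family, the Psmb sum had the highest ratios, at 1.34 (95% interval 1.33 to 1.35) in T-ALL#1 and 1.40 (1.39 to 1.42) in T-ALL#2, and the Psmc sum the lowest in T-ALL#1 at 1.19 (1.17 to 1.20). In T-ALL#1 the highest members were Psmb4 (1.48), Psmd3 (1.47) and Psmb10 (1.46). In T-ALL#2 they were Psmb5 (1.74), Psmd3 (1.57) and Psmb4 (1.52).

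Among the chaperone genes, Psmd5 lay below its preleukemic level in each leukemia with either scaling, and Psmd10 was lower per total UMIs but not with TMM factors. Psmd5 was at 40.3 CPM in WT, 39.2 in preleukemic cells and, in leukemias T-ALL#1 and T-ALL#2, 30.0 and 24.5, with ratios over the preleukemic library of 0.765 and 0.625 (0.915 and 0.884 with TMM factors). Psmd10 was at 39.6, 46.0, 39.6 and 33.3 CPM, with ratios of 0.860 and 0.725, which turned to 1.03 and 1.03 with TMM factors. Psmd10 lies on the X chromosome, and the part of the sex of the mice in its levels was not tested. Psmd5 and Psmd10 were among the 3 lowest members in both leukemias, beside Psmc6 (0.954) in T-ALL#1 and Psmc3ip (0.811) in T-ALL#2, both above 1 with TMM factors. The third chaperone gene, Psmd9, was above 1 in both, at 1.13 and 1.36.

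**Figure D4:**
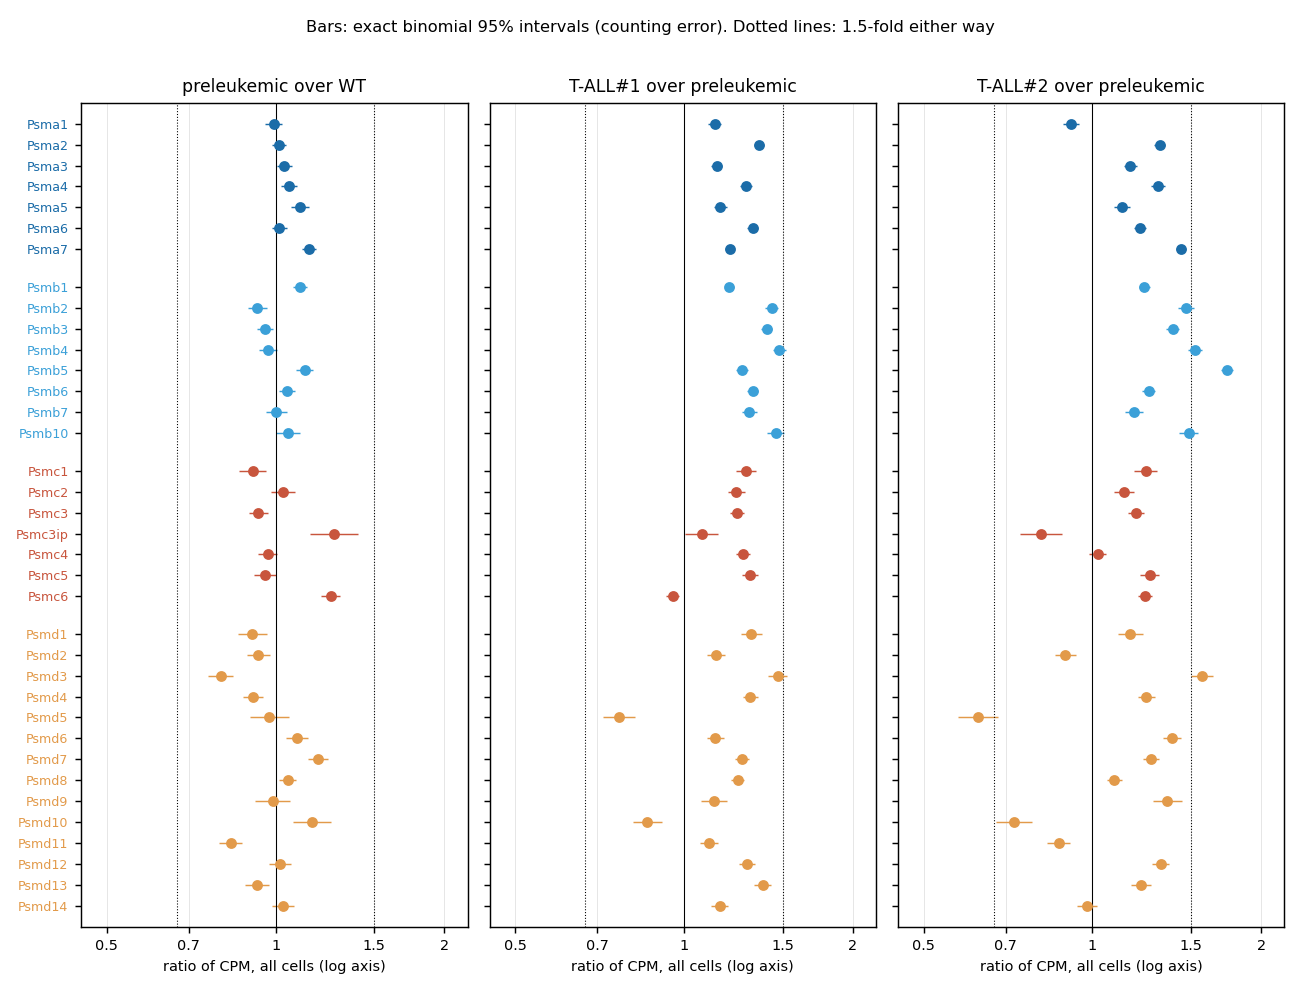
Ratio of CPM over all cells, on a log axis, for the 36 members in the preleukemic library over WT and in each leukemia over the preleukemic library. Bars are exact binomial 95% intervals and dotted lines mark 1.5-fold. Points lie around 1 in the first panel and mostly right of 1 in the other two, with Psmd5 farthest left and Psmb5 farthest right in T-ALL#2.

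Cycling cells made up 47.9% of T-ALL#1 and 61.9% of T-ALL#2, against 23.8% of the preleukemic library, by detection, which also moves with depth. The ratios were therefore taken in non-cycling cells too. There 2 of 36 members were 1.5-fold higher in both leukemias, Psmb10 (1.51 and 1.54) and Psmd3 (1.62 and 1.79), and 1 was lower in both, Psmd5 (0.628 and 0.582), beside 7.45% of genes higher and 21.4% lower. Medians over the members were 1.20 and 1.30, beside 0.899 and 0.674. Scaling mattered for these counts, since TMM factors moved all ratios over all cells up by 0.26 on the log2 scale in T-ALL#1 and by 0.50 in T-ALL#2, and those over non-cycling cells by 0.18 and 0.47. With them, 18 of 36 members were 1.5-fold higher and 0 lower in both leukemias over all cells, beside 17.6% of genes higher and 12.4% lower. In non-cycling cells, 13 were higher and 0 lower with them, beside 14.1% and 13.7% of genes. The T-ALL#2 cells were also those read with another version of the counting software and cut at 3416 UMIs, whose part was not tested.

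Of the pathway genes, Nfe2l1 was at 38.7 CPM in WT, 33.3 in preleukemic cells and, in leukemias T-ALL#1 and T-ALL#2, 16.1 and 14.9, and was lower in both leukemias than in both other libraries. Ngly1, which encodes the enzyme that processes the Nfe2l1 protein, was at 43.4, 48.5, 22.4 and 27.8 CPM. The ubiquitin gene Ubb was below its preleukemic level in both leukemias, with ratios of 0.550 and 0.489. Pomp, the maturation factor of the core particle, was at 263, 254, 327 and 329 CPM and thus followed the subunits.

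Psmb10 was set against Psmb7, the subunit it replaces, within the same cells. Over all cells Psmb10 was at 100.4 CPM (95% interval 96.5 to 105) in WT, 105.5 (102 to 109) in preleukemic cells and, in leukemias T-ALL#1 and T-ALL#2, 154 (151 to 157) and 157 (153 to 161). The gene lies at chr8:105935735-105938444 on the minus strand. The number of Psmb10 UMIs per Psmb7 UMI in cycling cells was 0.544 in WT, 0.606 in preleukemic cells and, in leukemias T-ALL#1 and T-ALL#2, 0.774 and 0.886. In non-cycling cells it was 0.925, 0.928, 1.02 and 1.10. Cycling cells thus had the lower value in each of the 4 libraries, with 95% intervals that did not overlap, beside a log2 difference with cycling of 0.63 for Psmb7, which passed the test, and 0.11 for Psmb10, which did not.

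By stage, the ratio over all cells with Cd4 and Cd8a was 0.460 (0.422 to 0.501) in WT, 0.678 (0.568 to 0.808) in preleukemic cells and, in leukemias T-ALL#1 and T-ALL#2, 0.765 (0.730 to 0.801) and 0.961 (0.845 to 1.09). In WT this stage was the lowest of the 5, below Cd8a only (0.804), Il2ra only (0.972), Cd4 only (1.06) and cells with none of the 3 (1.10). With both states together, the 5 stages lay closer together in the preleukemic and leukemic libraries than in WT. They ran from 0.653 to 0.866 in preleukemic cells, from 0.765 to 0.976 in T-ALL#1 and from 0.850 to 0.979 in T-ALL#2. In non-cycling cells they ran from 0.600 to 1.24 (WT), 0.843 to 1.57 (preleukemic), 0.926 to 1.29 (T-ALL#1) and 0.966 to 1.72 (T-ALL#2). Cycling cells ran from 0.398 to 1.10, 0.535 to 0.667, 0.694 to 0.923 and 0.778 to 0.935 in that order. In non-cycling cells only T-ALL#1 was clearly narrower than WT. Preleukemic Cd4 only cells (1.57) rest on 33 Psmb10 and 21 Psmb7 UMIs. Psmb10 is also strongly used by cells other than thymocytes, so their marker lists were read. Myeloid markers summed to 58.5 CPM in WT and 4.50 to 7.56 elsewhere, and NK and innate-like markers to 60.2 CPM in WT, 60.1 in preleukemic cells and, in leukemias T-ALL#1 and T-ALL#2, 7.11 and 1.10. Without cells that held 2 or more UMIs of B cell, myeloid or erythroid markers, Psmb10 was at 98.7, 105, 154 and 157 CPM, within the spread of counting error of the levels over all cells. The part of NK and innate-like cells was not tested. In 65822 droplets of T-ALL#2 with 100 to 500 UMIs, which hold mostly free RNA, Psmb10 was at 156 CPM and Psmb7 at 175 CPM, close to their levels in its cells.

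**Figure D5:**
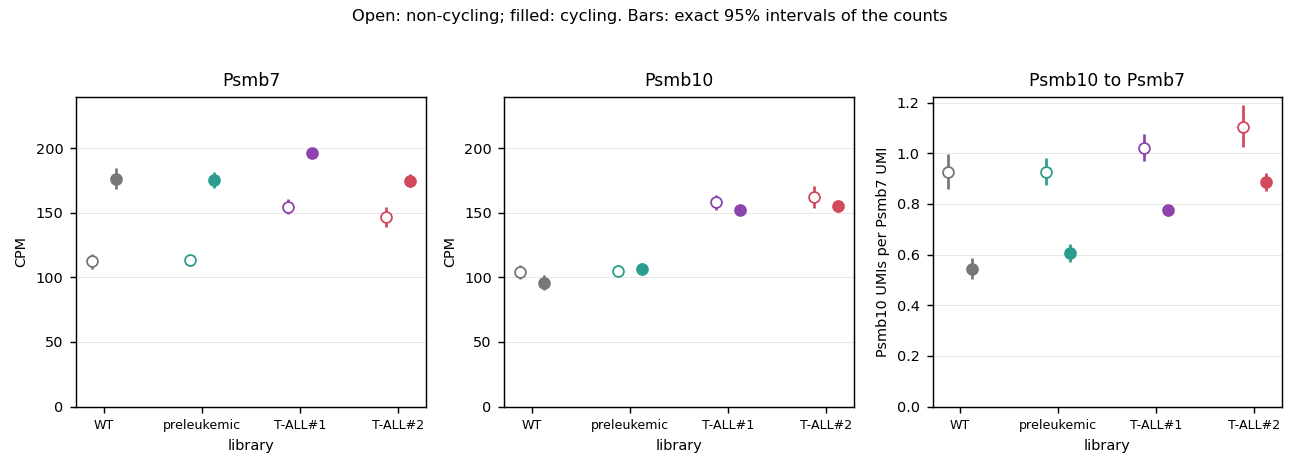
Psmb7 (left) and Psmb10 (middle) in CPM, and Psmb10 UMIs per Psmb7 UMI (right), by library, with exact 95% intervals. Open points are non-cycling and filled points cycling cells. Filled points lie higher for Psmb7 and lower for the ratio in every library, from 0.544 against 0.925 in WT to 0.886 against 1.10 in T-ALL#2.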

How the data were processed

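Whole thymus cells of 4 mice were profiled by 10x Genomics 3′ sequencing, and the authors deposited UMI counts per gene and barcode, not normalized. Per the submitters' processing notes the reads were counted with Cell Ranger 3.0.2 for WT, the preleukemic library and T-ALL#1 (called cells alone) and with Cell Ranger 4 for T-ALL#2 (1791965 barcodes), on mm10. For T-ALL#2, a cell was a barcode with at least the UMI number at percentile 99 of the 10000 deepest barcodes divided by 10. No doublet caller was run, and an upper limit on genes per cell was an alternative. The labels name chemistry versions without giving them per library.

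UMIs were summed per library and state. CPM is the sum per 1000000 UMIs, with exact Poisson 95% intervals that cover counting error only, and ratios have exact binomial ones. Sums with at least 1 UMI per gene were tested with edgeR 4.0.16 (TMM factors, glmQLFit, R 4.3.3), with the animal as a block, over all genes, with Benjamini-Hochberg adjustment. States compared come from the same animal, so sums are paired by design. Deviations of both sums of a library correlated at 0.859 to 0.913 (cycling), 0.642 to 0.856 (cycling, Il2ra-only) and 0.473 to 0.801 (stage). With 1 WT and 1 preleukemic library, levels were compared between libraries by ratio, and no test of them was run. The test was checked on simulated counts with known changes. Those counts were drawn with a smaller dispersion (spread beyond counting error) than edgeR fitted here, so the check does not cover the spread of these data. Alternatives changed the scaling, block, filter, tool, cell limits, depth and libraries. Python 3.11.15 (numpy 2.4.6, pandas 2.3.3, scipy 1.17.1, matplotlib 3.10.9) and DESeq2 1.42.0 were also used.

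The members and gene lists were chosen with earlier results of these data known. Genes were named as the largest and smallest changes of each family, with the catalytic subunits, Psmb10 and Psmb11 by name, and in the stage and interaction comparisons uncalled members are given by range. Of 31053 gene identifiers 31011 were found in GENCODE M21. No column belonged to another sample (0 such columns). Values of some genes of the pathway list are not reported here.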

Additional observations from a re-analysis of the deposited data

How the results depend on the processing

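Of 54 recomputed counts of called members, 35 stayed within 1.5 times the reported count, 17 were lower and 2 higher. Of 638 recomputed log2 differences of named genes, 490 kept their direction and side of the threshold, 126 lost the call and 22 turned. Of 100 recomputed CPM levels of families, all members and Psmb10, 21 stayed within the counting interval of the reported level. The other 79 lay outside it. Scaling to total UMIs, thinning with states read at full depth and the leukemias alone with the block were chosen after seeing the data.

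Without the replicate block for the paired sums of an animal, the called members were 3 (cycling, all cells), 0 (stage) and 1 (cycling, Il2ra-only), and 0 in the leukemias alone, against 6 there with it. No interaction was called with or without it. Leaving out 1 library gave 27 to 31 (cycling, all cells), 0 to 1 (stage), 15 to 29 (cycling, Il2ra-only) and 0 to 0 (interaction). The 3 stage calls became 5 with DESeq2 size factors or all cells of both stages, 1 with the DESeq2 Wald test, and 0 with filterByExpr, total UMIs or either thinning. The 28 Il2ra-only calls became 0 with thinned cells and 13 with states read at full depth.

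Members 1.5-fold higher in both leukemias numbered 18 with TMM factors, 3 with means over cells or thinned cells, and 1 with a mitochondrial share under 5%. In non-cycling cells they were 13 with TMM factors and 1 under 5%, and 0 were lower with TMM factors or at 50 CPM or more. Preleukemic against WT, 1 was lower in non-cycling cells with means over cells or thinning.

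The summed members with TMM factors were at 4943 (WT), 5244 (preleukemic), 7878 (T-ALL#1) and 9315 (T-ALL#2) CPM, as means over cells at 4686, 5029, 6686 and 6867, under 5% mitochondrial UMIs at 6120, 6108, 7742 and 7815, and with an upper limit on genes at 5409 and 5845 in WT and the preleukemic library. Psmb10 was at 85.8, 93.4, 163 and 196 CPM with TMM factors and at 81.6, 101, 149 and 152 as a mean over cells, and at 158 in T-ALL#1 under 5%.

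In all cells, Psmb10 turned to -0.06 (total UMIs) and -0.04 (thinned), Psmd10 to -0.04 (total UMIs), Psmd9 to -0.10 (total UMIs), -0.19 (thinned) and -0.06 (states at full depth), and Psmc3ip to -0.01 (states at full depth). In Il2ra-only cells, Psmb10 turned to -0.02 (both DESeq2 settings), -0.01 (filterByExpr), -0.08 (total UMIs), -0.63 (thinned), and over each library left out ran from -0.06 (without T-ALL#1) to 0.06, at -0.00 without T-ALL#2. There Psmb1 (-0.11), Psmd7 (-0.19) and Psmd9 (-0.62) turned when thinned, Psmc3ip (-0.13), Psmd10 (-0.07) and Psmd9 (-0.57) with states at full depth, and Psmd9 in the leukemias alone (-0.04 without the block, -0.02 with it). The cause of these changes was not tested. Depth limits Psmb11 and Psma8, and the 20 cycling Il2ra-only cells of WT.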
